A study of Homo sapiens with 12 samples.

Results

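The 35 genes described here form a list named for fatty acid oxidation. The list is wider than that pathway, as GCDH, for example, acts in the breakdown of lysine and tryptophan. The 35 genes were measured in MDA-MB-231 cells given a mimic of miR-145-5p, with and without silencing of Ago2. They were taken by gene symbol: 4 acyl-CoA synthetases (ACSL1, ACSL3, ACSL4, ACSL5), 5 genes of the carnitine shuttle (CPT1A, CPT1B, CPT1C, CPT2, SLC25A20), 10 acyl-CoA dehydrogenases (ACADVL, ACADM, ACADS, ACADSB, ACAD8, ACAD9, ACAD10, ACAD11, IVD, GCDH), 5 genes of the later mitochondrial steps (ECHS1, HADH, HADHA, HADHB, ACAA2), 3 auxiliary enzymes for unsaturated fatty acids (DECR1, ECI1, ECI2), 3 genes of electron transfer (ETFA, ETFB, ETFDH) and 5 peroxisomal enzymes (ACOX3, HSD17B4, EHHADH, ACAA1, DECR2). All 35 were found among the 20708 genes of the array, with 478 of its 209671 assigned probes, and all 35 were among the 18252 genes kept by the filter on dim probes, with 421 of 142947 kept probes.

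MDA-MB-231 is an established human breast cancer line of mesenchymal, triple-negative type. Each of 4 groups had 3 single-color exon arrays. The group cntrl received a negative control precursor and a control Dicer-substrate siRNA, mimic145 received the miR-145-5p precursor, sirnaAGO2 received the siRNA against AGO2, and sirnaAGO2+mimic145 received both, with precursors at 5 nM and siRNAs at 500 pM for 72 h. All cells were therefore transfected, in 1 cell line, and the labels do not say whether replicates were separate cultures, so that the p-values measure the spread between these samples. The 72 h is the time of silencing, and the time with a precursor is not given for these arrays.

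Fatty acids are first activated to acyl-CoA by synthetases, and long chains then enter mitochondria through the carnitine shuttle. Each round of β-oxidation starts with an acyl-CoA dehydrogenase, which passes electrons to the electron transfer flavoprotein, a dimer of the products of ETFA and ETFB, and on to ubiquinone through ETFDH. Double bonds need auxiliary enzymes: DECR1 encodes the mitochondrial 2,4-dienoyl-CoA reductase, and ECI1 and ECI2 encode enoyl-CoA isomerases. A miRNA guides Argonaute proteins, among them Ago2, to transcripts, mostly through pairing of its seed.

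The mature strand that the mimic supplies is shown because its seed, in capitals (bases 2 to 8), is what target transcripts pair with. It is taken from RefSeq (GRCh38.p14, chr5:149430661-149430683, plus strand), and no target sites in the 35 genes were analysed here.
hsa-miR-145-5p: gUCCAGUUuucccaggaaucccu

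Values are log2 of the processed signal after quantile normalization, averaged over the kept probes of a gene, and differences were tested with limma over all 18252 genes (Benjamini-Hochberg adjusted p under 0.05, two-sided). Feature Extraction called 60.5% to 77.3% of spots well above background, depending on the array. The mesenchymal markers VIM, CD44 and the epidermal growth factor receptor EGFR were well above background in over 96% of probe calls, while PGR had 0 of 9 probes kept, ESR1 had 6 of 14, CDH1 had 7 of 16 and ERBB2, expected to be low in a triple-negative line, had 25 of 30. KRT18, an epithelial keratin that the line also expresses, had 13 of 13 probes kept, and its log2 level was 12.45 ± 0.15 (SD, n = 3) in cntrl and 12.95 ± 0.12 in mimic145, against 12.26 ± 0.17 in silenced cells without the mimic and 12.37 ± 0.15 with it; its part in the results was not tested. Of leukocyte PTPRC 4 of 33 probes were kept, and of endothelial PECAM1 1 of 2. The AGO2 transcript was lower with the siRNA, by 0.71 in sirnaAGO2 against cntrl (61.0% of signal left, adjusted p = 0.00494). In sirnaAGO2+mimic145 48.1% of the mimic145 signal was left (adjusted p = 7.9e-04), so that silencing was partial at the RNA level. Ago2 protein, which the study followed by western blot, is not measured by these arrays. AGO2 was itself higher with the mimic in control cells, by 0.28 (121% of cntrl, adjusted p = 0.0299), which raises the reference of that 48.1%. A slide held arrays of 1 replicate number, with and without the mimic, from either control or silenced cells. The mimic array was always at the second position of a slide, so that position and mimic cannot be told apart, and silencing was always compared between slides.

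In control cells, the mimic lowered 12 of the 35 genes and raised 1. The lowered genes included DECR1, ETFDH, ETFB and HSD17B4, each with 49.5% to 53.8% of the control signal left, and the raised gene was GCDH. Of all genes tested 22.5% were called in this comparison, 11% lower and 11.6% higher, against 37.1% called and 34.3% lower of the 35. These shares are not like for like, as the median standard error was 0.0722 for the 35 and 0.099 for all genes. A change of a given size therefore passes more readily among the 35, here and in the later comparisons. With probes above background on all 12 arrays, 14 of 34 passed against 30.1% of all genes. The median difference was -0.12 for the 35 and 0.01 for all genes. The arrays of 12 genes lay wholly below those of cntrl and those of 1 gene wholly above, where 13.5% and 14.9% of all genes did so. These 12 were not quite the lowered ones: ACADVL was among them but not called, and ACADS was called but overlapped. DECR1 and ETFB were among the genes the study singled out on these same arrays, so that their falls here are not independent evidence of a direction. The study also reports RT-qPCR of both genes in biological replicates, which is not part of these arrays.

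Of the electron transfer genes, ETFB and ETFDH fell and ETFA, whose product pairs with that of ETFB, was at nearly the same level. ETFB read 10.74, 10.94 and 11.01 in cntrl and 9.93, 9.92 and 10.07 in mimic145. Without the mimic, silenced cells had 10.65, 10.86 and 10.88, and with it 10.53, 10.47 and 10.63. The arrays of mimic145 were the lowest of the 4 groups and did not overlap with any other. In control cells ETFB fell by 0.92 ± 0.07 (SE; adjusted p = 1.23e-04), and 6 of 6 probes were lower.

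ETFDH, which hands electrons to ubiquinone, read 7.11, 7.13 and 7.53 in cntrl and 6.12, 6.28 and 6.54 in mimic145. In silenced cells it read 7.45, 7.51 and 7.64 without the mimic and 7.22, 6.49 and 7.14 with it. The last group was spread widely, with its second array close to those of mimic145. ETFDH fell by 0.94 ± 0.15 in control cells (adjusted p = 0.0028), with 11 of 11 probes lower; 2 of its 11 kept probes were not above background on any mimic145 array. With normexp it was at -0.50 (adjusted p = 0.00108). ETFA read 10.51, 10.35 and 10.43 in cntrl and 10.45, 10.48 and 10.39 in mimic145, a difference of 0.01 ± 0.07 (adjusted p = 0.936), with 5 probes lower and 7 higher.

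Among the auxiliary enzymes, DECR1 and ECI2 fell. DECR1 read 11.06, 11.01 and 11.11 in cntrl and 9.95, 10.10 and 10.08 in mimic145. In sirnaAGO2 the values were 10.75, 10.86 and 10.91, and in sirnaAGO2+mimic145 they were 10.63, 10.51 and 10.48. The 4 groups did not overlap and stood in the order cntrl, sirnaAGO2, sirnaAGO2+mimic145 and mimic145. The fall in control cells was 1.01 ± 0.08 (log2 difference -1.01, adjusted p = 1.03e-04), with 10 of 10 probes lower.

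ECI2 read 11.86, 11.80 and 11.83 in cntrl and 11.14, 11.27 and 11.25 in mimic145. Silenced cells had 11.73, 11.75 and 11.77 without the mimic and 11.58, 11.41 and 11.55 with it. Both mimic groups lay below their own controls. ECI2 fell by 0.61 ± 0.07 in control cells (adjusted p = 6.39e-04, 10 of 10 probes). ECI1, the other isomerase of mitochondria, differed by 0.00 ± 0.08 (adjusted p = 0.98), with 3 probes lower and 3 higher.

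**Figure D1:**
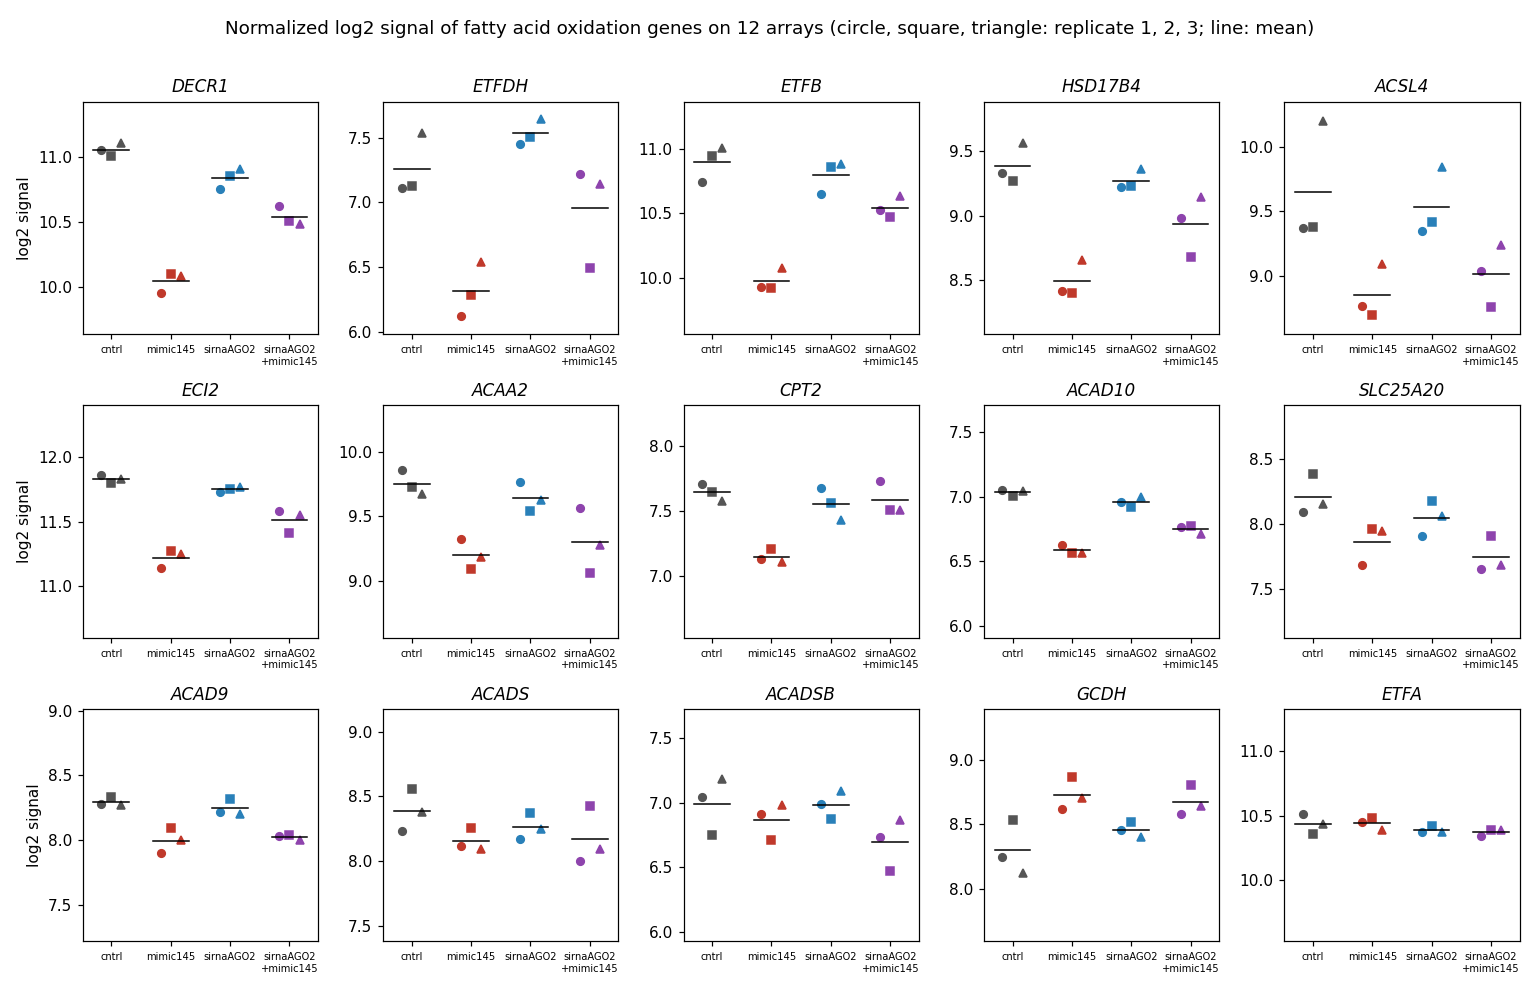
Normalized log2 signal (y axis, the same span in every panel) on each of 12 arrays in the 4 groups (x axis) for the genes called in either mimic comparison and ETFA, with the mean of 3 arrays as a line. DECR1, ETFB and HSD17B4 are lowest in mimic145 and intermediate in sirnaAGO2+mimic145, while ETFA stays between 10.34 and 10.51.

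Of the 5 genes listed here as peroxisomal enzymes, only HSD17B4, a bifunctional enzyme of peroxisomal β-oxidation, fell. It read 9.33, 9.27 and 9.56 in cntrl and 8.41, 8.40 and 8.66 in mimic145. In silenced cells it read 9.22, 9.23 and 9.36, and 8.98, 8.68 and 9.15 with the mimic. The groups with the mimic lay below their controls, and mimic145 lay below all others. The fall in control cells was 0.90 ± 0.08 (log2 difference -0.90, adjusted p = 2.07e-04). Of its 23 probes 22 were lower, over a range from -1.90 to 0.15. The other genes listed under that heading did not pass: ACAA1 differed by 0.18, ACOX3 by 0.12, DECR2 by -0.04 and EHHADH, which rests on 2 probes, by -0.07.

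ACSL4, a synthetase with a preference for arachidonate, was the single synthetase of 4 that fell. It read 9.37, 9.38 and 10.20 in cntrl and 8.76, 8.70 and 9.09 in mimic145. With AGO2 silenced it read 9.34, 9.42 and 9.84, and 9.04, 8.76 and 9.24 with the mimic as well. Replicate 3 was the highest in every group. ACSL4 fell by 0.80 ± 0.11 in control cells (adjusted p = 0.00161, 18 of 18 probes). ACSL1, ACSL3 and ACSL5 ran from -0.12 to 0.25 and did not pass.

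Of the carnitine shuttle, CPT2, the inner membrane transferase, and SLC25A20, the carnitine-acylcarnitine carrier, fell. CPT2 read 7.71, 7.65 and 7.57 in cntrl and 7.13, 7.21 and 7.11 in mimic145. In silenced cells it read 7.68, 7.56 and 7.43, and 7.73, 7.51 and 7.51 with the mimic. The silenced groups overlapped, and mimic145 stood alone. CPT2 fell by 0.50 ± 0.07 in control cells (adjusted p = 0.00163, 4 of 4 probes), and with normexp it was at -0.32 (adjusted p = 0.00107).

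SLC25A20 read 8.09, 8.39 and 8.15 in cntrl, 7.69, 7.96 and 7.94 in mimic145, 7.91, 8.18 and 8.06 in sirnaAGO2 and 7.65, 7.91 and 7.68 in sirnaAGO2+mimic145. Its fall in control cells was 0.35 ± 0.07 (log2 difference -0.35, adjusted p = 0.00658), but 4 of 6 probes were lower and 2 higher, and it is the lowered gene that moved most with the rule for probes with several spots, to -0.50 when 50% of the spots sufficed. It was at -0.06 (adjusted p = 0.655) with probes above background on all 12 arrays, -0.19 (adjusted p = 0.12) with the median over probes and -0.23 (adjusted p = 0.0156) with normexp background correction, and 8 of 27 alternatives lost the call. CPT1A, CPT1B and CPT1C, the outer membrane transferases and their brain relative, ran from -0.15 to 0.23 and did not pass. The probes of CPT1B ran from -2.26 to 0.34 and those of CPT1C from -0.84 to 1.33, so that their means join probes that disagree.

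Of the later mitochondrial steps, ACAA2, the thiolase of the mitochondrial matrix, fell. It read 9.85, 9.73 and 9.67 in cntrl and 9.32, 9.09 and 9.18 in mimic145. In silenced cells it read 9.77, 9.54 and 9.63, and 9.56, 9.06 and 9.28 with the mimic. ACAA2 fell by 0.55 ± 0.08 in control cells (adjusted p = 0.00155, 10 of 10 probes). HADHA, of the trifunctional protein, was at -0.20 and did not pass (adjusted p = 0.0647), although 20 of 20 probes were lower, and its partner HADHB was at -0.08. HADH and ECHS1 were at -0.12 and 0.06.

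Among the 10 acyl-CoA dehydrogenases, ACAD10, ACAD9 and ACADS fell and GCDH rose. ACAD10 read 7.05, 7.01 and 7.04 in cntrl, 6.63, 6.56 and 6.57 in mimic145, 6.96, 6.92 and 6.998 in sirnaAGO2 and 6.76, 6.77 and 6.71 in sirnaAGO2+mimic145, and it fell by 0.45 ± 0.06 (adjusted p = 0.00108). ACAD9, which also takes part in the assembly of respiratory complex I, read 8.28, 8.33 and 8.27 in cntrl, 7.90, 8.09 and 7.998 in mimic145, 8.22, 8.32 and 8.20 in sirnaAGO2 and 8.03, 8.04 and 8.003 in sirnaAGO2+mimic145, and it fell by 0.30 ± 0.06 (adjusted p = 0.00891). With normexp ACAD10 was at -0.24 (adjusted p = 0.00278) and ACAD9 at -0.19 (adjusted p = 0.0103). ACAD9 was at -0.20 (adjusted p = 0.0331) with probes above background on all 12 arrays, and with the median over probes it was at -0.12 and did not pass (adjusted p = 0.466). In both genes the arrays with the mimic lay below their controls, with and without silencing.

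ACADS, the short-chain enzyme, read 8.23, 8.56 and 8.38 in cntrl, 8.12, 8.25 and 8.09 in mimic145, 8.17, 8.37 and 8.25 in sirnaAGO2 and 7.997, 8.42 and 8.09 in sirnaAGO2+mimic145. Its groups overlapped, its fall of 0.23 ± 0.07 (log2 difference -0.23) was just inside the threshold (adjusted p = 0.0467), and 6 of 27 alternatives kept the call, with values down to -0.10 (adjusted p = 0.656) for the median over probes. GCDH, which acts on glutaryl-CoA in the breakdown of lysine and tryptophan, read 8.25, 8.53 and 8.12 in cntrl, 8.62, 8.87 and 8.70 in mimic145, 8.45, 8.52 and 8.40 in sirnaAGO2 and 8.58, 8.80 and 8.64 in sirnaAGO2+mimic145. GCDH rose by 0.43 ± 0.08 (adjusted p = 0.0043, 11 of 11 probes). The enzymes for very long and medium chains, ACADVL and ACADM, were at -0.14 and -0.05, and the other 4 dehydrogenases ran from -0.22 to 0.15 and did not pass.

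**Figure D2:**
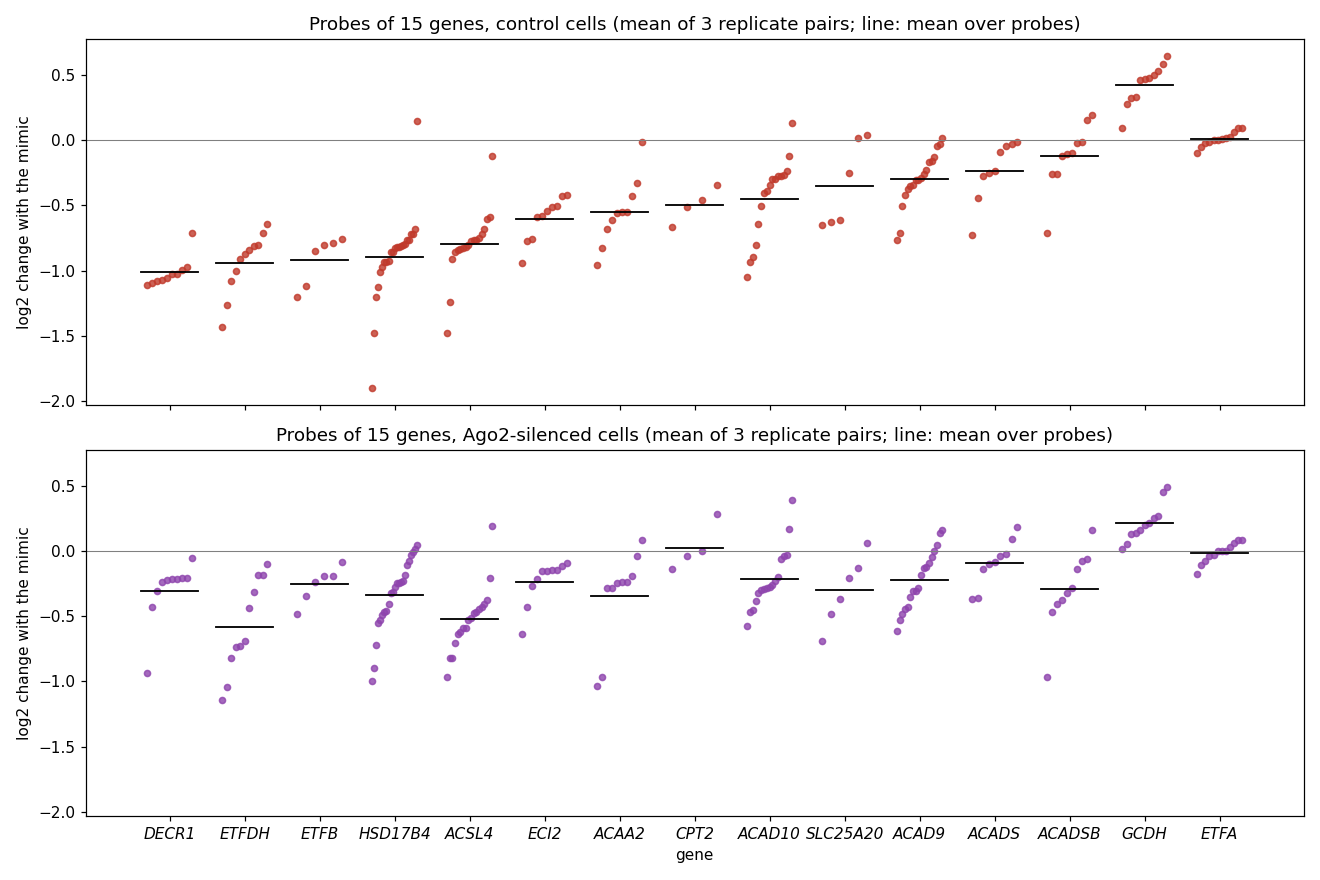
Log2 difference with the mimic (y axis) for each kept probe of 15 genes (x axis) in control cells (top) and Ago2-silenced cells (bottom), as the mean of 3 replicate pairs, with the mean over probes as a line. In control cells all 10 probes of DECR1 and all 6 of ETFB lie below 0 and the 12 probes of ETFA around it.

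In Ago2-silenced cells, the mimic lowered 6 of the 35 genes and raised none. These were ACSL4, ACAA2, HSD17B4, DECR1, SLC25A20 and ACADSB, a dehydrogenase of short branched chains. Of all genes 7.28% were called, 3.03% of all lower and 4.25% higher, against 17.1% and 0 of the 35, and the medians were -0.09 for the 35 and 0.02 for all genes. The arrays of 13 genes lay wholly below those of sirnaAGO2 and those of 2 wholly above, where 10.2% and 13.9% of all genes did so. The called genes ACAA2 and SLC25A20 were not among these 13. ACSL4 fell by 0.52 ± 0.11 (adjusted p = 0.0344), ACAA2 by 0.34 ± 0.08 (log2 difference -0.34, adjusted p = 0.0373), HSD17B4 by 0.33 ± 0.08 (log2 difference -0.33, adjusted p = 0.0385) and DECR1 by 0.30 ± 0.08 (log2 difference -0.30, adjusted p = 0.0469). The differences of SLC25A20 and ACADSB were -0.30 (adjusted p = 0.0362) and -0.29 (adjusted p = 0.0359). With probes above background on all 12 arrays SLC25A20 was at -0.09, ACADSB at -0.10 and ACAA2 at -0.18 (adjusted p = 0.57, 0.485 and 0.0808), and with 75th percentile scaling SLC25A20 and ACADSB were at -0.15 and -0.10 (adjusted p = 0.325 and 0.454).

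These calls were close to the threshold. None of the 6 remained without a replicate block, where 0.427% of all genes passed. The number called ran from 0 to 8 when 1 replicate or 1 array was left out, where 0% to 12.5% of all genes passed. ACADSB read 6.99, 6.88 and 7.09 in sirnaAGO2 and 6.74, 6.47 and 6.87 in sirnaAGO2+mimic145, while in control cells it read 7.04, 6.75 and 7.18 in cntrl and 6.91, 6.71 and 6.99 in mimic145, a difference of -0.12 that did not pass (adjusted p = 0.213). ETFDH had the lowest value, -0.58 ± 0.15, and did not pass (adjusted p = 0.053), and ETFB was at -0.25 ± 0.07 (adjusted p = 0.0628).

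Of the 12 genes lowered in control cells, 5 were called lower in silenced cells, 11 were lower by sign, and all 12 had the smaller difference there. Because passing in control cells defined these 12, smaller values in another comparison are favoured by that choice alone. The same counts were not made for the 2004 genes lowered among all genes, so they cannot be read as particular to the 12. CPT2 was the exception in sign, at 0.03 ± 0.07. The difference between the mimic effects was itself tested, and 0 of 35 genes passed by limma, where 0.011% of all genes did. At an unadjusted p under 0.05 there were 6 of 35, a share close to the 16.7% of all genes. The nearest were DECR1, with a difference of 0.71 ± 0.11, and ETFB, with 0.67 ± 0.10 (adjusted p = 0.0617 for both), followed by CPT2 at 0.52 ± 0.10 (adjusted p = 0.0818), HSD17B4 at 0.56 ± 0.11 (adjusted p = 0.0837), ECI2 at 0.37 ± 0.10 (adjusted p = 0.132) and ACAD10 at 0.24 ± 0.08 (adjusted p = 0.218). In all 6 the difference was above 0 in 3 of 3 replicates, which is favoured by their choice on this same difference. A weaker response in silenced cells was thus not shown for any of the 35 genes at this threshold. With normexp background correction 4 of 35 passed, against 0.822% of all genes. With probes above background on all 12 arrays 6 of 34 passed, against 1.76% of all genes.

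**Figure D3:**
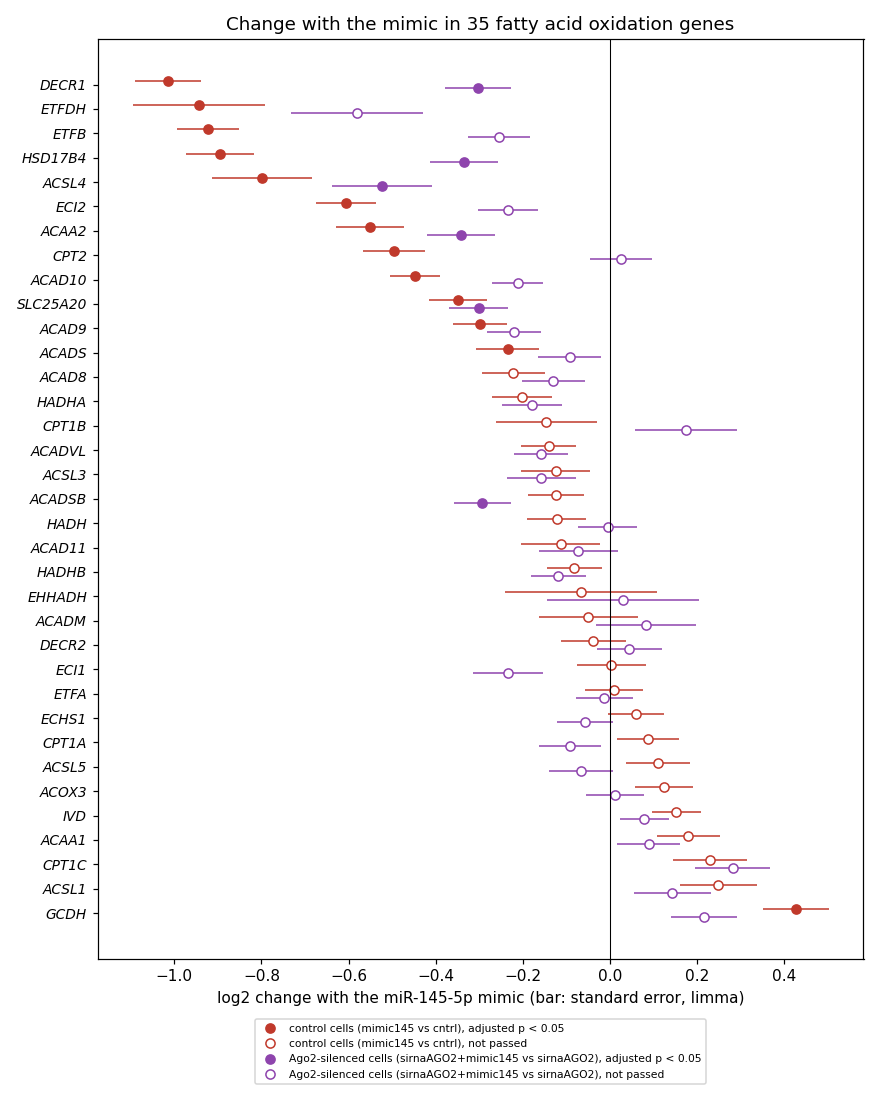
Log2 change with the mimic (x axis, bars are standard errors) for all 35 genes (y axis) in control cells (red) and in Ago2-silenced cells (purple), with filled points for an adjusted p under 0.05. DECR1, ETFB and HSD17B4 sit between -1.01 and -0.90 in control cells and between -0.33 and -0.25 in silenced cells.

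With silencing alone 0 of the 35 genes passed by limma in sirnaAGO2 against cntrl, where 2.58% of all genes did, and 4 had an unadjusted p under 0.05 (DECR1, ACOX3, ACSL3 and SLC25A20), against 19% of all genes. DECR1 was at -0.22 ± 0.08 (adjusted p = 0.166), lower in 3 of 3 pairs and 10 of 10 probes with arrays that did not overlap, and ETFB at -0.10 ± 0.07 (adjusted p = 0.49). The arrays of 4 genes lay wholly below those of cntrl and of 0 genes wholly above, where 10.6% and 8.48% of all genes did so. The median was -0.07 for the 35 and -0.03 for all genes.

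Among cells with the mimic, silencing raised 4 of the 35 genes and lowered 1, where 4.31% of all genes were called, 1.86% higher and 2.44% lower. The arrays of 6 genes lay wholly above those of mimic145 and those of 5 wholly below, where 6.22% and 8.56% of all genes did so. This comparison shares the mimic145 arrays with the first. ETFB was higher by 0.57 ± 0.07 (adjusted p = 0.00704), DECR1 by 0.49 ± 0.08 (adjusted p = 0.0131), HSD17B4 by 0.44 ± 0.08 (adjusted p = 0.0198) and CPT2 by 0.43 ± 0.07 (adjusted p = 0.0167), and their arrays did not overlap. ETFDH, at 0.64 ± 0.15, and ECI2, at 0.29 ± 0.07, did not pass (adjusted p = 0.0517 and 0.0504). ACOX3, a peroxisomal oxidase of branched chains, was the gene that fell. It read 7.75, 7.92 and 7.93 in mimic145 and 7.48, 7.60 and 7.62 in sirnaAGO2+mimic145, a difference of -0.30 ± 0.07 (adjusted p = 0.0427). With normexp it was at -0.17 (adjusted p = 0.0556), and only 4 of 27 alternatives kept the call. It read 7.76, 7.74 and 7.74 in cntrl and 7.56, 7.56 and 7.54 in sirnaAGO2.

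Beyond the 35, 44 of 47 other fatty acid oxidation genes were kept, of which the mimic lowered 11 and raised 5 in control cells (median -0.03), or 36.4% called against 22.5% of all genes. HSD17B8, counted in this list although it belongs to mitochondrial fatty acid synthesis, was at -0.70 (adjusted p = 4e-04). The carnitine transporter SLC22A5 was at -0.65 (adjusted p = 5.04e-04) and the synthetase ACSF2 at -0.55 (adjusted p = 0.0014). Among 12 genes of flavin supply and partners of the flavoprotein 0 fell and 4 rose (33.3% called, median 0.02), led by RFK, riboflavin kinase, at 0.54 (adjusted p = 0.00187), with SLC25A32 at 0.41 (adjusted p = 0.00462) and SLC52A2 at 0.31 (adjusted p = 0.0141). Of 28 regulators 5 fell and 2 rose (25% called, close to the share of all genes, median 0.04): the deacylase SIRT5 was at -0.73 (adjusted p = 5.77e-04), the nuclear receptor PPARD at 0.45 (adjusted p = 0.00125) and the coactivator PPARGC1A at -0.46 (adjusted p = 0.00348). Of 29 kept genes of fatty acid synthesis 1 fell and 6 rose (24.1% called, also close to that share, median 0.11), with ACLY, which makes cytosolic acetyl-CoA, at 0.77 (adjusted p = 5.54e-04), HACD2 at -0.40 (adjusted p = 0.0165) and ACSS2 at 0.30 (adjusted p = 0.0214).

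In silenced cells the same lists had 2 lower and 3 higher, 0 and 0, 2 lower and 0 higher, and 1 lower and 2 higher, or 11.4%, 0%, 7.14% and 10.3% called against 7.28% of all genes. SLC22A5 (-0.44, adjusted p = 0.0145), ACSF2 (-0.35, adjusted p = 0.0347), SIRT5 (-0.46, adjusted p = 0.0194), HACD2 (-0.41, adjusted p = 0.0372) and ACLY (0.46, adjusted p = 0.0213) also passed there. PPARGC1A was lower with silencing alone, at -0.66 (adjusted p = 0.00811). It was the 1 regulator of 28 called there, or 3.57%, close to the 2.58% of all genes.

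**Figure D4:**
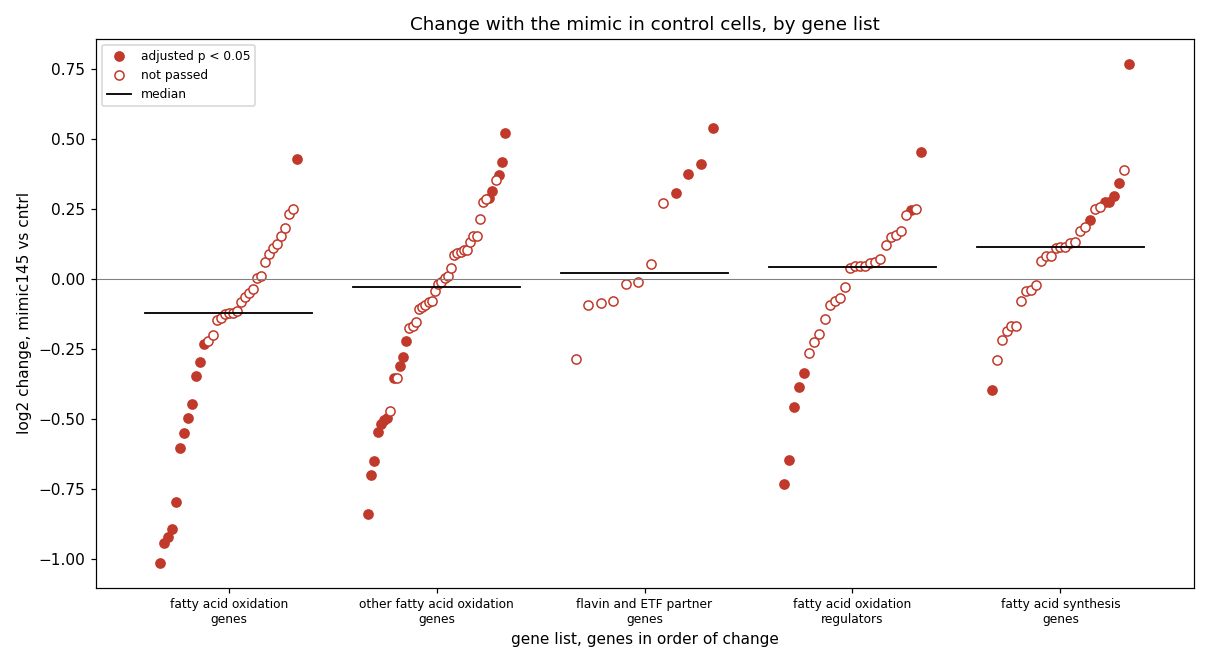
Log2 change with the mimic in control cells (y axis) for the 35 genes and 4 further lists (x axis, genes of a list in order of change), with filled points for an adjusted p under 0.05 and the median as a line. The median is -0.12 for the 35 genes and 0.11 for fatty acid synthesis genes.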

How the data were processed

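RNA of 12 samples was labelled with 1 dye and hybridized to Agilent exon arrays, and the authors deposited the Feature Extraction (10.7.3.1) intensity of each spot, corrected for background and not normalized between arrays. Quantile normalized log2 values that the authors deposited for the same arrays were an alternative source. From the intensity, outlier spots (304 to 462 per array) were left out, values under 1 set to 1 (there were 0), and the signals quantile normalized, log2 transformed and averaged over the spots of a probe. Probes were assigned to genes through their transcript accession, and kept where well above background, with all of their spots, on all 3 arrays of at least 1 group. The number of arrays limits the precision.

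limma 3.58.1 (R 4.3.3) was fitted to gene means of all 12 arrays with the replicate number as a block. The pairing follows the labels and the paired test of the study's methods. Deviations from the group mean correlated at 0.14 to 0.58 for arrays with the same number (18 pairs) and at -0.50 to 0.20 for others. Because a group's deviations cancel, positive values for the same number push the others negative, so the ranges are not independent. On simulated arrays with 200 of 18252 genes changed by 1 on the log2 scale, 179 were found for mimic145 against cntrl, 178 for sirnaAGO2+mimic145 against sirnaAGO2, 177 for sirnaAGO2 against cntrl, 184 between the mimic groups and 149 for the difference of mimic effects; smaller changes were not simulated. Sequences were read with Python 3.11.15 and pandas 2.3.3, and plots drawn with matplotlib 3.10.9.

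The members and lists were chosen with earlier results of these data known. All 35 members are accounted for; array values are given for DECR1, ETFB and members that passed a comparison (ETFA was added after its values were seen), and at most 3 genes, by adjusted p, for each other list. The rule for probes with several spots was chosen after values of the members had been seen: at first, 50% of the spots sufficed, and it was changed to all spots to match an earlier processing of these arrays. The first rule is given among the alternatives: another scaling, background correction, source, filter, summary, block, set of arrays, variance model, test or threshold, and leaving out each replicate and array.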

Additional observations from a re-analysis of the deposited data

Results flagged for a closer look

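ACSL5, a synthetase of long-chain acyl-CoA, stood out because its 3 replicate pairs were all higher with the mimic in control cells and all lower in Ago2-silenced cells. It read 9.71, 9.75 and 9.94 in cntrl and 9.77, 9.89 and 10.07 in mimic145, and 9.72, 9.67 and 9.73 in sirnaAGO2 and 9.63, 9.64 and 9.65 in sirnaAGO2+mimic145. Its 21 probes disagreed, from -1.04 to 0.61 in control cells (16 higher, 5 lower) and from -0.97 to 0.43 in silenced cells, where 13 were higher and 8 lower although the mean was below 0. The mimic effects were 0.11 and -0.07, neither passed, and the difference between them, -0.18 ± 0.10, did not pass by limma (adjusted p = 0.419).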

How the results depend on the processing

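Of 783 recomputed values of the named genes, 558 kept their direction and side of the threshold, 212 no longer passed, 13 newly passed and 0 changed direction. The 13 genes called in mimic145 against cntrl became 0 by the methods' t-test (paired, Benjamini-Hochberg, with 15 at an unadjusted p under 0.05) and 7 with a log2 change over 0.5 required. They ran from 9 to 14 when a replicate or array was left out, where 6.63% to 24.3% of all genes were called. By the t-test 0 of all 18252 genes passed in any of the 5 comparisons, so its zeros are not particular to the 35. The study also used a permutation test, not run here, and lists genes with an FDR above 0.05, so its threshold was not the one used here. The 6 called in silenced cells became 3 with the median over probes, 0 with no replicate block (12 unadjusted), 2 with the slide as a random block, 0 with only the arrays compared (13 unadjusted), 0 by the methods' t-test (11 unadjusted) and 1 over 0.5. They ran from 0 to 8 with a replicate or array left out: 0 without replicate 1, 2 or 3 (9 to 11 unadjusted), without mimic145 replicate 1, any of the sirnaAGO2 arrays, or sirnaAGO2+mimic145 replicate 2 or 3 (12 to 16 unadjusted), and 1 without cntrl replicate 1 or 2. Of all genes in silenced cells, 0 passed with only the arrays compared and without replicate 2 or 3. The share was 0.427% with no replicate block and 2.09% without replicate 1. The 5 called between the mimic groups became 9 with probes above background on all 12 arrays, 3 with the median over probes, 2 with no replicate block, 2 with the slide as a block, 0 with only the arrays compared (11 unadjusted), 8 with an intensity trend, 0 by the methods' t-test (14 unadjusted) and 1 over 0.5. They ran from 0 to 5 with a replicate or array left out: 0 without replicate 1, 2 or 3 (8 to 11 unadjusted), 1 without mimic145 replicate 1, 2 without sirnaAGO2+mimic145 replicate 1 or 3, and 3 without mimic145 replicate 2 or 3. Of all genes between the mimic groups, 0 passed with only the arrays compared and without replicate 3. The share was 8.46% with probes above background on all 12 arrays. For the difference of mimic effects, 0 became 4 with normexp, 1 with the authors' log2 table, 6 with probes above background on all 12 arrays, 1 with the slide as a block and 2 with an intensity trend. The shares of all genes were 0.822%, 0.184%, 1.76%, 0.164% and 0.542% in the same order. For silencing alone the number of the 35 called was 0 under every alternative run, where at most 6.81% of all genes passed. The cause of these shifts was not tested. Scaling by the 75th percentile moved the median of all genes by less than 0.1 in each comparison.

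The rule for probes with several spots was changed after values of the members had been seen. With the first rule, by which 50% of the spots sufficed, the counts were 13, 6, 0, 5 and 0, as with the rule used, and SLC25A20 was at -0.50, against -0.35, in control cells. Kept probes that were above background on no array of a mimic group limit the folds of ETFDH, ACAD10, ACADS, ACADSB (2 of 10 in sirnaAGO2+mimic145) and SLC25A20 (1 of 6), and among genes not called those of CPT1C and ACSL5.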

Other observations

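Promoter windows from RefSeq (GRCh38.p14, 250 bases before to 50 after the start) were found for 28 of the 35 genes and searched on both strands for 4 strings, chosen after the array results were known: the nuclear receptor half-site AAGGTCA, the direct repeat of nuclear receptors, the core of the NRF1 site, and CCAATCA, of NF-Y. The search was negative for the lowered genes: 0 of the 10 with a window held any of the 4. Of the other 18, 0 held the first 3 strings and 1, IVD, held CCAATCA. Of 27305 genes with a window, 4.8% held AAGGTCA, 0.0293% the direct repeat, 1.52% the NRF1 core and 8.35% CCAATCA. With so few windows and such rare strings, a count of 0 says only that these letters are not in these windows.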
